A study of Homo sapiens with 2 samples.

Results

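The tubulin genes described here are 10 protein-coding genes, chosen by name: the alpha tubulins TUBA1A, TUBA1B, TUBA1C and TUBA4A, the beta tubulins TUBB, TUBB2A, TUBB3, TUBB4B and TUBB6, and the gamma tubulin TUBG1. They are 10 of the 58735 gene identifiers in the count tables. The cells were MCF10a-Snail-ER, a derivative of the non-tumorigenic human mammary epithelial line MCF10a that stably carries the repressor Snail joined to the estrogen receptor, grown with horse serum, EGF, insulin, hydrocortisone and cholera toxin. All RNA came from cells given 100 nM tamoxifen for 1 day, which activates the fusion protein to start an epithelial-to-mesenchymal transition; no untreated library was analysed here. Polyadenylated RNA was read as native strands in 1 Nanopore direct RNA library and as amplified cDNA fragments in 1 Illumina TruSeq stranded library, and the series calls the RNA matched. With 1 library per platform there is no replicate, so every test and interval covers counting error in these libraries only and does not compare the platforms in general.

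Alpha and beta tubulin pair into heterodimers that polymerize into microtubules, while gamma tubulin sits in the ring complex that nucleates them. Several genes, called isotypes, encode each class, with nearly the same folded body and a divergent, acidic carboxy-terminal tail that carries most post-translational modifications and binds motors and other partners. Cells also hold down their own tubulin mRNA: when free heterodimer is in excess, TTC5 recognizes the first residues of the nascent chain and the mRNA being translated is degraded.

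How alike the members are in sequence bears on every count, since a fragment can be given to a gene only by bases that distinguish it. The last 60 coding bases of each beta member, stop codon included, encode the tail and show where isotypes differ most clearly. They are from the GENCODE release 44 canonical transcripts, 5′ to 3′. Capitals mark bases that differ from TUBB, or have no counterpart in it, when the whole coding sequences are aligned.
TUBB: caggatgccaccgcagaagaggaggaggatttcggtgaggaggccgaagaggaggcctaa
TUBB2A: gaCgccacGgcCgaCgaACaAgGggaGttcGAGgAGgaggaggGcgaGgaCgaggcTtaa
TUBB3: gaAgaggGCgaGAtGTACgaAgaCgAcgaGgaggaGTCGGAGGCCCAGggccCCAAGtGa
TUBB4B: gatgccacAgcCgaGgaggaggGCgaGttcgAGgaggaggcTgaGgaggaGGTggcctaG
TUBB6: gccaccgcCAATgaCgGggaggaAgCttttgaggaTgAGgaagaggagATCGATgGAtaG
TUBB4B has 14 capitals, TUBB2A 18, TUBB6 20 and TUBB3, the isotype best known from neurons, 32.

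The first 60 coding bases include the codons of the residues recognized in autoregulation and vary far less. Here the other beta members differ from TUBB by 5 to 8 bases. TUBB, TUBB3, TUBB4B and TUBB6 share AGG as the second codon, where TUBB2A has CGC, and both codons encode arginine. The start of TUBG1 is shown beside that of TUBB, with no capitals.
TUBB: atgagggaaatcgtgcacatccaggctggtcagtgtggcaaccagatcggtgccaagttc
TUBG1: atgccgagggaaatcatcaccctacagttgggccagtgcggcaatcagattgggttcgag
Over the whole coding sequence, the 6 alpha pairs were 84.4% to 97.2% identical, the highest being TUBA1A with TUBA1B. The 10 beta pairs were 81.0% to 87.7% identical, and the 20 alpha with beta pairs 55.8% to 58.7%. TUBG1 was 52.2% to 56.9% identical to the other members.

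Values are given as counts and as counts per 1000000 of the library total (CPM). The Nanopore library held 403235 counts, so 1 count is 2.48 CPM and the 3 counts used as a detection floor are 7.44 CPM. The Illumina library held 191741714 counts, with a floor of 0.0156 CPM. Intervals are 95% Wilson intervals for CPM and shares and 95% exact intervals for ratios. A log2 ratio sets the Nanopore level over the Illumina level after 1 CPM is added to each, so ratios of rare genes are drawn toward 0. The members' counts came from a line in which 6 of 6 basal mammary markers were detected on each platform, with summed Nanopore and Illumina levels of 3135 and 2723 CPM. The 5 luminal markers summed to 1647 and 687.5 CPM, but KRT19 had 1 Nanopore count, under the floor, and ESR1 may include the construct. Endothelial and fibroblast markers summed to 0 and 2.48 CPM by Nanopore and to 5.16 and 5.85 CPM by Illumina, and immune markers to 12.4 and 11.0 CPM, with PTPRC and CD3E at 0 by Nanopore. The 3 neuronal markers summed to 1572 and 4.23 CPM, almost all of the first being SYN1, a gene on the strand opposite TIMP1 that had the same Nanopore count as TIMP1, 633.

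All 10 members were detected on both platforms, and all exceeded a mean of 5 CPM, the minimum for testing. TUBA1B was the most abundant member on each platform. At least 2-fold higher levels by Illumina were seen for 3 of 10 members (TUBA1A, TUBA1C and TUBB), against 30.2% of the 12414 genes tested, and at least 2-fold higher levels by Nanopore for 0 of 10, against 19.2%. By the two-sided exact binomial test with Benjamini-Hochberg adjustment over all tested genes, 8 of 10 members were higher by Illumina at an adjusted p under 0.05, against 27.2% of tested genes. None was higher by Nanopore, against 20.2%. TUBA4A and TUBB2A did not pass. Raising the minimum mean to 20 CPM left 9 members, of which 8 were higher by Illumina, against 37.6% of 7582 genes. The median log2 ratio of the members was -0.87, and that of all tested genes -0.42, with quartiles of -1.18 and 0.54. All members are protein-coding. Tested protein-coding genes had a median of -0.58, with 10.1% at least 2-fold higher by Nanopore and 33.8% by Illumina. Those with a canonical transcript in the members' length range (1563 to 2823 bases) had a median of -0.41 and shares of 11.9% and 25.2%. Dividing Illumina counts by canonical transcript length moved the median of all tested genes to 0.48 and the 2-fold shares to 34.8% by Nanopore and 11.1% by Illumina. The members' median minus that of all tested genes was -0.46 on the CPM scale and -1.18 after this division. It was -0.72 with union exonic length and -0.77 with mean transcript length.

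**Figure D1:**
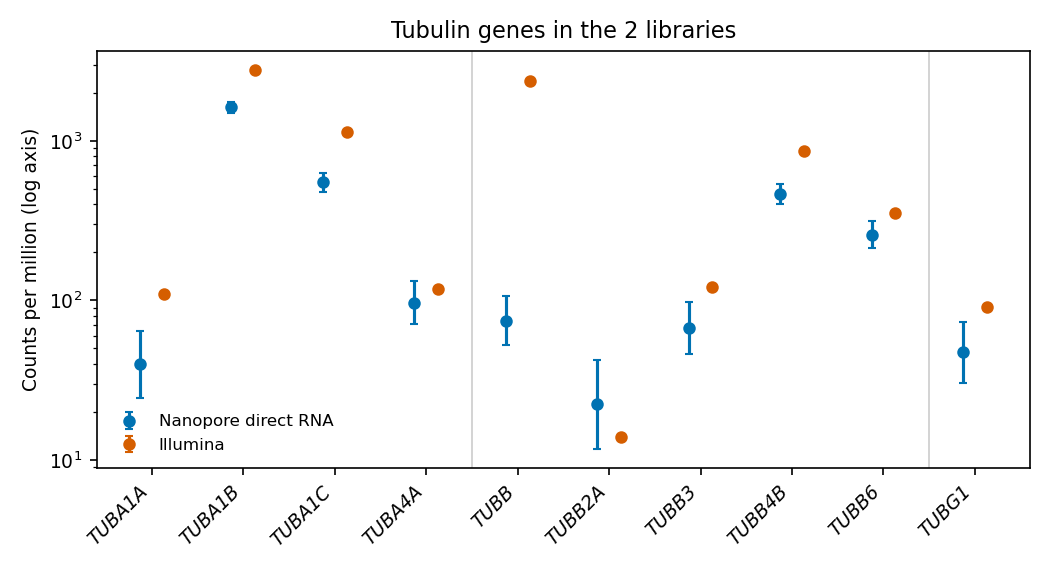
Level of each tubulin gene in each library, in CPM on a log axis, with 95% Wilson intervals for counting error and 1 library per platform. TUBB stands at 74.4 CPM by Nanopore and 2373 CPM by Illumina, while the other 9 genes lie much closer together.

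Among the alpha tubulins, TUBA1B (chr12:49127782-49131397, minus strand, hg38), a major isotype of dividing cells, had 654 Nanopore and 533152 Illumina counts. These are 1622 CPM (1502 to 1751) and 2781 CPM, 1.71-fold higher by Illumina (1.59 to 1.85; exact binomial test with Benjamini-Hochberg adjustment, adjusted p = 4.66e-50). It ranked 93rd of all genes by Nanopore and 24th by Illumina. TUBA1C (chr12:49188736-49274600, plus strand), a close relative also expressed in dividing cells, had 221 and 218616 counts, or 548 CPM (480.4 to 625) and 1140.2 CPM. It was 2.08-fold higher by Illumina (1.82 to 2.38; same exact test, adjusted p = 1.07e-33). Its canonical transcript is the longest of the alpha members, 2823 bases against 1627 for TUBA1B. With Illumina counts divided by that length the log2 ratio of TUBA1C was -0.19 instead of -1.06 and no longer passed (exact test with Benjamini-Hochberg adjustment, adjusted p = 0.104). The exact-test call held with union exonic length (-0.34, exact test, adjusted p = 0.00121) and mean transcript length (-1.12, exact test, adjusted p = 4.24e-38). The difference with union exonic length is short of 2-fold.

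The other alpha members were rarer. TUBA1A (chr12:49184686-49189080, minus strand), the main alpha isotype of developing neurons, had 16 Nanopore counts, 39.7 CPM (24.4 to 64.5), and 21110 Illumina counts, 110.1 CPM. It was 2.77-fold higher by Illumina (1.71 to 4.86; exact binomial test with Benjamini-Hochberg adjustment, adjusted p = 8.85e-06). TUBA4A (chr2:219249710-219277902, minus strand), an isotype prominent in platelets and adult brain, had 39 counts, 96.7 CPM (70.8 to 132), and 22644 counts, 118 CPM. The ratio for TUBA4A, 1.22-fold higher by Illumina, had an interval of 0.893 to 1.72 that includes equal levels, and its log2 ratio of -0.29 turned to 0.11 per canonical length.

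The makeup of the alpha counts was similar on both platforms. TUBA1B gave 70.3% (67.3 to 73.2) of 930 Nanopore alpha counts and 67.0% of 795522 Illumina alpha counts. TUBA1C gave 23.8% (21.1 to 26.6) and 27.5%, TUBA4A 4.19% (3.08 to 5.68) and 2.85%, and TUBA1A 1.72% (1.06 to 2.78) and 2.65%. The order of TUBA1B and TUBA1C was the same on both platforms, whereas TUBA4A and TUBA1A stood apart by Nanopore and within a small margin of each other by Illumina. Divided by canonical length, the Illumina shares were 76.4% for TUBA1B, 18.1% for TUBA1C, 2.58% for TUBA4A and 2.94% for TUBA1A. This division reversed the order of the rarer pair. TUBA4A stayed above TUBA1A with union exonic length (2.92% against 2.63%) and mean transcript length (3.47% against 2.05%).

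Among the beta tubulins, TUBB (chr6:30717435-30725538, plus strand), a beta isotype expressed in most dividing cells, had 30 Nanopore and 455094 Illumina counts. These are 74.4 CPM (52.1 to 106) and 2373 CPM, a 31.9-fold difference (22.3 to 47.3) and a log2 ratio of -4.98. TUBB ranked 2093rd by Nanopore and 36th by Illumina, and at its Illumina share of the library it would have had 957 Nanopore counts. That share is not divided by length. With Illumina counts divided by canonical, union exonic or mean transcript length the log2 ratio of TUBB was -4.28, -4.39 or -3.72. The exact binomial test gave a log10 p of -358 before adjustment. Only 33 of the tested genes, 0.266%, had a lower ratio.

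The other 4 beta members did not share this difference. TUBB4B (chr9:137241287-137243707, plus strand), a widely expressed isotype, had 186 counts, 461 CPM (399.6 to 532), by Nanopore and 166285 counts, 867 CPM, by Illumina, 1.88-fold higher (1.63 to 2.18; exact binomial test with Benjamini-Hochberg adjustment, adjusted p = 1.52e-20). TUBB6 (chr18:12307669-12344320, plus strand), a more divergent and broadly expressed isotype, had 104 counts, 258 CPM (213 to 312), and 67717 counts, 353 CPM, 1.37-fold higher by Illumina (1.13 to 1.68; exact test, adjusted p = 0.00284). TUBB3 (chr16:89921392-89938761, plus strand) had 27 counts, 67.0 CPM (46.0 to 97.4), and 23093 counts, 120.4 CPM, 1.80-fold higher by Illumina (1.24 to 2.73; exact test, adjusted p = 0.00337). The intervals of these 3 fold differences lay far below that of TUBB. TUBB2A (chr6:3153497-3157544, minus strand), an isotype abundant in brain, was the rarest member, with 9 and 2685 counts, or 22.3 CPM (11.7 to 42.4) and 14.0 CPM. Its Nanopore over Illumina ratio of 1.59 had an interval of 0.728 to 3.03 that includes equal levels. The calls of TUBB6 and TUBB3 depend on length: with Illumina counts divided by canonical length TUBB6 was at -0.17 (exact test, adjusted p = 0.375), and with division by union exonic length the log2 ratios of TUBB6 and TUBB3 turned to 0.087 and 0.60.

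**Figure D2:**
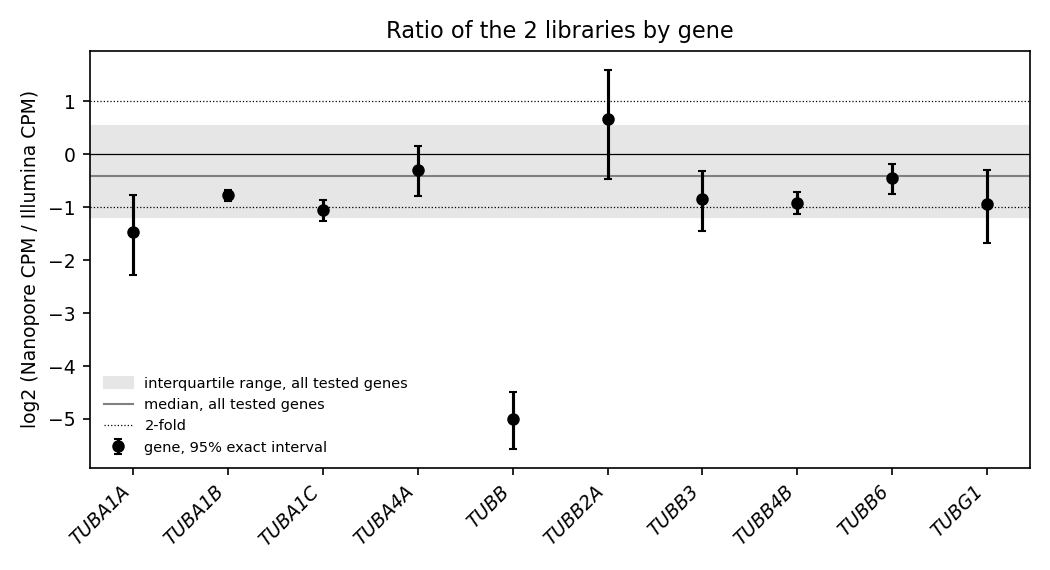
Log2 ratio of Nanopore over Illumina level for each tubulin gene, with 95% exact intervals for counting error, beside the median of all tested genes (-0.42). TUBB at -4.98 lies far from the other members, which run from -1.45 for TUBA1A to 0.64 for TUBB2A. The points and intervals are drawn without the added 1 CPM, whereas the median and the values given here include it.

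The makeup of the beta counts differed between the libraries mainly through TUBB. It gave 8.43% (5.97 to 11.8) of 356 Nanopore beta counts and 63.7% of 714874 Illumina beta counts. TUBB4B gave 52.2% (47.1 to 57.4) by Nanopore and 23.3% by Illumina, and TUBB6 29.2% (24.7 to 34.1) and 9.47%. The leading beta isotype was thus TUBB4B in one library and TUBB in the other. Among the 4 remaining genes, TUBB4B gave 57.1% (51.6 to 62.3) and 64.0%, TUBB6 31.9% (27.1 to 37.1) and 26.1%, TUBB3 8.28% (5.75 to 11.8) and 8.89%, and TUBB2A 2.76% (1.46 to 5.16) and 1.03%. With TUBB left out the order was the same in both libraries. Divided by canonical length, TUBB still led the Illumina beta counts with 53.4%, ahead of TUBB4B with 31.4%.

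**Figure D3:**
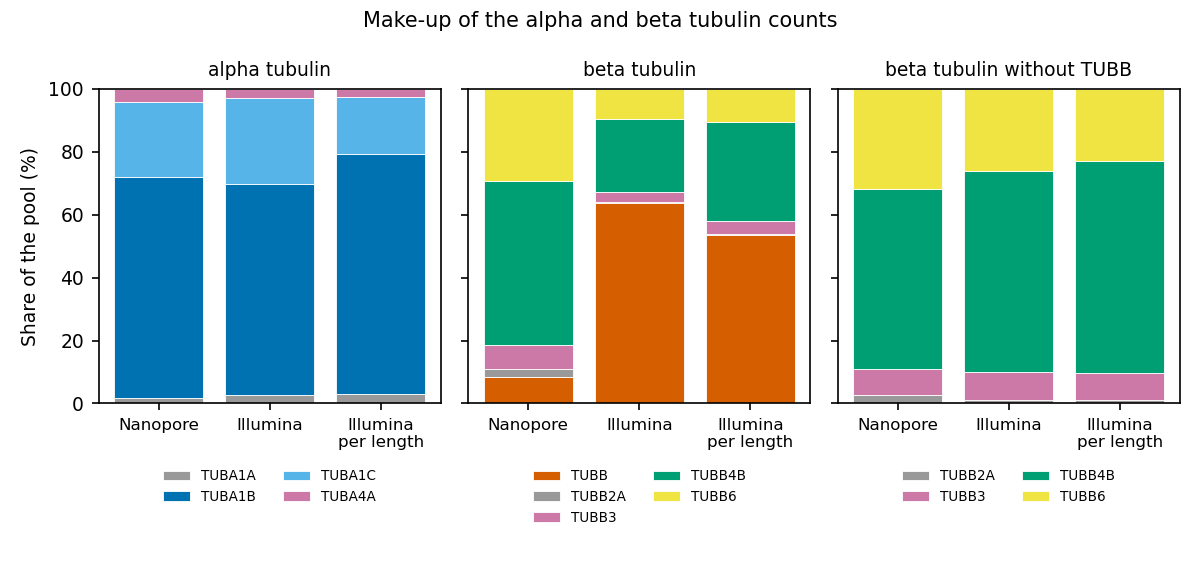
Share of each member in the summed alpha counts and the summed beta counts of each library, in percent. TUBB makes up 8.43% of the beta counts by Nanopore and 63.7% by Illumina, and the alpha shares differ much less.

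The balance of the classes followed TUBB as well. Summed alpha counts were 2.61 times (2.31 to 2.96) the summed beta counts by Nanopore and 1.11 times by Illumina. Without TUBB the ratios were 2.85 (2.51 to 3.25) and 3.06 (3.05 to 3.08), with overlapping intervals. All 10 members made up 0.324% (0.307 to 0.342) of Nanopore counts and 0.797% of Illumina counts, and the 9 without TUBB 0.316% and 0.559%. Across the 10 genes, Spearman's rho between Nanopore and Illumina CPM was 0.842, and across the 9 without TUBB 0.967, as a description of genes that share both libraries.

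TUBG1 (chr17:42609641-42615238, plus strand), the gene for the nucleating gamma tubulin, had 19 Nanopore counts, 47.1 CPM (30.2 to 73.6), and 17344 Illumina counts, 90.5 CPM. It was 1.92-fold higher by Illumina (1.23 to 3.19; exact binomial test with Benjamini-Hochberg adjustment, adjusted p = 0.0064). TUBG1 has 11 exons in its canonical transcript, against 4 in each alpha and beta member. Its call was lost with Illumina counts divided by union exonic length (log2 ratio -0.26; exact test, adjusted p = 0.66) or by mean transcript length (-0.15; exact test, adjusted p = 0.892).

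In order of Nanopore CPM the members were TUBA1B, TUBA1C, TUBB4B, TUBB6, TUBA4A, TUBB, TUBB3, TUBG1, TUBA1A and TUBB2A. TUBA1B stood apart from TUBA1C, TUBB4B from TUBB6, and TUBB6 from TUBA4A, by intervals that do not overlap. The intervals of TUBA1C and TUBB4B overlapped, and so did those of each adjacent pair from TUBA4A to TUBB2A. These Nanopore levels are not divided by length, since each native strand gives 1 read. On the Illumina scale per canonical transcript length (TPM), the order was TUBA1B at 2649, TUBB at 1463, TUBB4B at 859.9, TUBA1C at 626, TUBB6 at 291, TUBB3 at 109, TUBA1A at 102.0, TUBA4A at 89.3, TUBG1 at 87.2 and TUBB2A at 13.4. TUBB moves from the sixth place to the second between these orders.

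TUBB lies in the major histocompatibility region, for which hg38 holds alternate haplotype contigs besides the primary chromosome. Its canonical transcript of 2515 bases aligned end to end to 7 alternate contigs of chromosome 6, 5 of them with no difference and the others with 1 and 2 edits. No other member aligned to an alternate contig. Among tested genes, 329 (2.65%) had such a copy, with a median log2 ratio of -1.65 and 69.0% at least 2-fold higher by Illumina. The 12021 tested genes for which none was found had a median of -0.40 and 29.3%. TUBB was also low within its kind, since 16 of the 329 genes had a lower ratio. The sources used here name hg38 but do not say whether the reference for read alignment held the alternate contigs. How reads with several equally good placements were counted is not given either, and the part of the copies in the TUBB difference was not tested.

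The genes next to TUBB showed the same direction. Of 9 tested protein-coding genes within 100 kb, 9 had copies on 5 to 7 alternate contigs and 9 were at least 2-fold higher by Illumina. They summed to 32 Nanopore and 115795 Illumina counts. Their median log2 ratio was -3.64, or -2.67 with the 2 genes at 0 by Nanopore set to the floor of 3 counts. By name, IER3, an immediate early gene, had 6 Nanopore and 23248 Illumina counts. MRPS18B, a mitochondrial ribosomal protein gene, had 9 and 20705, and PPP1R10, which encodes a protein phosphatase 1 regulatory subunit, 10 and 14288. PPP1R18, for another phosphatase 1 partner, had 2 and 14088, and MDC1, a DNA damage checkpoint gene, 1 and 11970. None of the tested protein-coding neighbours of the other 9 members had a copy on an alternate contig. Their medians ran from -2.26 near TUBA1B (2 genes) to 0.16 near TUBB4B (10 genes), and the 3 tested neighbours of TUBB2A, also on chromosome 6, had a median of -0.71.

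**Figure D4:**
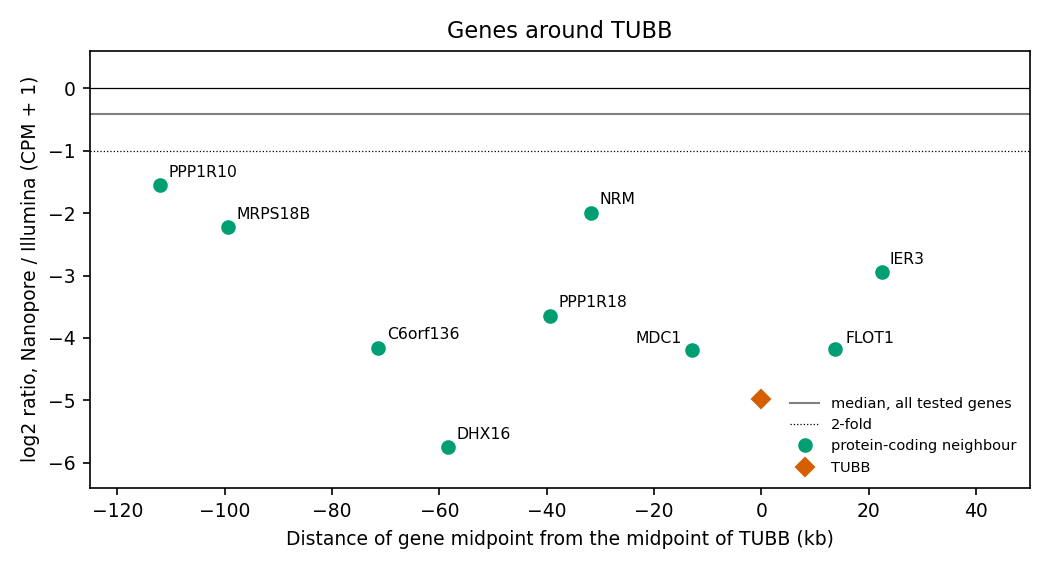
Log2 ratio of Nanopore over Illumina level of the tested protein-coding genes around TUBB, against distance from TUBB in kb. All 9 neighbours lie at or below -1.55, and TUBB at -4.98 lies below the 7 neighbours with a Nanopore count, of which the lowest is MDC1 at -4.19. The ratios of the 2 neighbours at 0 by Nanopore are set by the added 1 CPM.

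Every member overlaps another annotated gene, as do 77.2% of tested genes. Of the 10 members, 9 share exonic bases with a gene on the opposite strand, a share that was not computed for all genes. How strand was used in counting is not given in the sources used here, and without it reads of a gene and of an opposite-strand partner cannot be told apart. For 7 of the 10 members such a partner had at least 50% as many Nanopore counts as the member, and for 3 at least 50% as many Illumina counts. TUBA1A is in both sets through its neighbours, since it shares 345 bases with TUBA1C and 68 with TUBA1B-AS1, both far more abundant.

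The closest match was TUBA1B with TUBA1B-AS1, an annotated antisense gene with 1571 shared exonic bases. Its Nanopore count was 654, the same as TUBA1B, and its Illumina count 228846, or 42.9% of TUBA1B. The unnamed antisense locus ENSG00000258232, with 666 bases shared with TUBA1C, had 214 Nanopore counts (96.8% of TUBA1C) and 64588 Illumina counts (29.5%). ENSG00000272540, with 538 bases shared with TUBB, had 21 counts (70.0% of TUBB) and 76393 (16.8%). In each of these 3 pairs the partner took a larger share of the member's count by Nanopore than by Illumina.

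The same was seen for protein-coding partners of TUBB4B, TUBA4A and TUBG1. FAM166A, with only 124 bases shared with TUBB4B, had 171 Nanopore counts (91.9% of TUBB4B) and 848 Illumina counts (0.510%), a log2 ratio of 6.29. STK16, a kinase gene with 628 bases shared with TUBA4A, had 35 counts (89.7%) and 7400 (32.7%). TUBA4B, a tubulin locus with 112 bases shared with TUBA4A, had 23 counts (59.0%) and 10 (0.0442%). RETREG3, an endoplasmic reticulum-phagy receptor gene with 174 bases shared with TUBG1, had 22 counts (116%) and 10629 (61.3%).

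TUBB2A and TUBB6 went the other way. BPHL, with 82 bases shared with TUBB2A, had 3 counts (33.3%) by Nanopore and 2458 (91.5%) by Illumina, and AFG3L2, with 837 bases shared with TUBB6, 21 (20.2%) and 25504 (37.7%). For TUBB3 the partner is on the same strand. ENSG00000198211, a locus whose exons cover 1584 bases of TUBB3, had 27 Nanopore counts, the same as TUBB3, and 19459 Illumina counts (84.3%). The values of TUBB3 are uncertain for that reason. Low-count overlaps were ENSG00000258101 within TUBA1C (0 and 77 counts) and ENSG00000259006 within TUBB3 (1 and 262), with 0 shared exonic bases each. MDC1, which shares 13 exonic bases with TUBB, had 1 and 11970 counts, or 3.33% and 2.63% of TUBB.

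**Figure D5:**
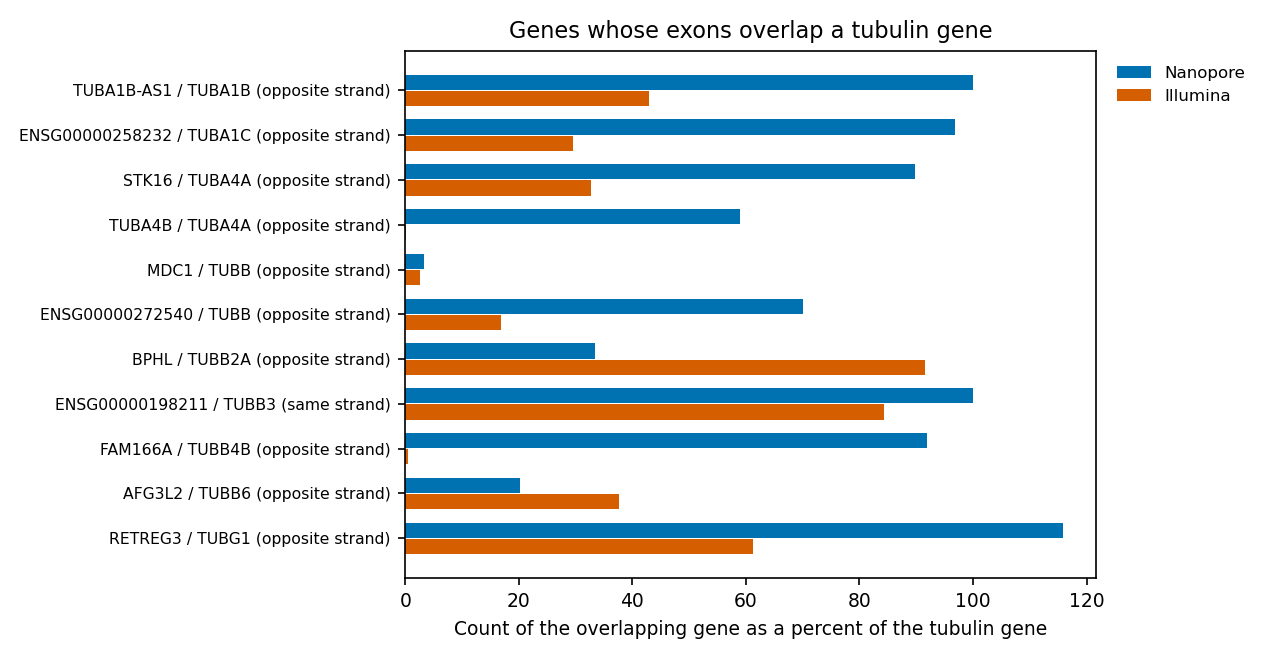
Count of each gene whose exons overlap a tubulin gene, as a percent of the count of that tubulin gene, in each library; the much more abundant neighbours of TUBA1A are not drawn. TUBA1B-AS1 reaches 100% of TUBA1B by Nanopore and 42.9% by Illumina, and FAM166A 91.9% and 0.510% of TUBB4B.

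Near-identical sequence also limits single members. Of the 50-base words of each canonical transcript, 62.7% of those of TUBA1B occur in another gene in the same sense, mainly TUBA1A and TUBA1C, and 47.3% of TUBA1A and 26.7% of TUBA1C. The shares were 64.6% for TUBB2A, mostly with TUBB2B, and 30.0% for TUBG1, mostly with TUBG2. They were 92.8% for TUBB3, mostly with ENSG00000198211. They were lower for TUBB (19.3%), TUBB4B (10.4%), TUBA4A (5.55%) and TUBB6 (1.09%). The counts of TUBA1A, TUBA1B, TUBA1C, TUBB2A, TUBB3 and TUBG1, and to a lesser extent of the other members, are therefore uncertain where short fragments fell on shared words.

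Other tubulin genes added little to the class totals. The 14 listed summed to 36 Nanopore and 7139 Illumina counts, with at least 1 count for 6 genes by Nanopore and 12 by Illumina, and 5 tested. TUBA4B (log2 ratio 5.79; exact binomial test with Benjamini-Hochberg adjustment, adjusted p = 1.58e-52) was the 1 of 5 called by the exact test, in the direction of Nanopore. Over all tested genes the exact test called 20.2% by Nanopore and 27.2% by Illumina. TUBG2, the other gamma tubulin gene, had 2 and 3464 counts and did not pass (exact test, adjusted p = 0.0914). The members held 97.5% of Nanopore and 99.9% of Illumina counts over all 26 annotated alpha loci, pseudogenes included, and 97.8% and 98.9% over all 45 beta loci. Of 51 tubulin pseudogenes, 1 had Nanopore counts (TUBBP9, with 4 counts against 0 by Illumina) and 14 had Illumina counts. TUBBP1, whose sequence covers 17.1% of the 50-base words of TUBB, had 0 and 7036 counts, at least 4.93-fold higher by Illumina against the Nanopore floor (exact test, adjusted p = 3.94e-06). That Illumina count is 1.55% of the count of TUBB.

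Genes that fold tubulin were described as 3 lists, against 27.2% of tested genes higher by Illumina and 20.2% by Nanopore by the exact test. The chaperonin CCT, which folds newly made actin and tubulin, had 7 of 8 subunit genes higher by Illumina by the exact binomial test and 0 by Nanopore, with a median log2 ratio of -0.90. CCT3 had 194 and 184157 counts (adjusted p = 4.49e-26 with Benjamini-Hochberg adjustment of the exact test), while TCP1 with 164 and 92853 (-0.25; exact test, adjusted p = 0.0515) did not pass. Prefoldin, which hands unfolded chains to CCT, had 3 of 6 genes higher by Illumina, 0 by Nanopore and a median of -0.29. PFDN5 was at -0.59 and PFDN2 at 0.10. PFDN6, which also has copies on alternate contigs (4), had 5 and 16784 counts and a log2 ratio of -2.72. The cofactors that assemble the heterodimer had 2 of 6 genes higher by Illumina and 1 by Nanopore, with a median of -0.26. TBCB, which binds alpha tubulin, was the 1 higher by Nanopore, with 49 and 11915 counts (0.96; exact test, adjusted p = 0.000128), and TBCA, a beta tubulin cofactor, was at 0.26 with 107 and 42570 counts.

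Of the partners of TUBG1 in the ring complex, 2 of 9 genes were higher by Nanopore and 2 by Illumina by the exact binomial test, shares near those of all tested genes (20.2% and 27.2%). MZT2B had 125 and 5436 counts (log2 ratio 3.41; exact test with Benjamini-Hochberg adjustment, adjusted p = 4.02e-80), and MZT1, another small subunit gene, 34 and 12500 (0.37). MZT2B overlaps SMPD4 on the opposite strand, which had 145 and 18848 counts. Of the genes of tubulin mRNA autoregulation 2 of 3 could be tested and 0 passed. TTC5 had 2 and 2967 counts and CNOT11, a subunit of the deadenylase complex, 11 and 8887.

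Regulators of microtubule dynamics had 7 of 19 tested genes higher by Illumina and 1 by Nanopore by the exact test, against 27.2% and 20.2% of all tested genes, with a median of -0.88. STMN1, which sequesters heterodimers, had 144 and 90245 counts (-0.40), MAP4, a lattice-binding protein gene, 16 and 43941 (-2.50), CKAP5, a plus-end polymerase gene, 32 and 40016 (-1.38), and MAPRE2, an end-binding protein gene, 2 and 5908 (-2.42). Enzymes that modify the tail or the acetylated lysine had 5 of 10 tested genes higher by Illumina and 3 by Nanopore, against the same 27.2% and 20.2%, with a median of -0.88. TTL, which adds back the terminal tyrosine of alpha tubulin, had 15 and 17908 counts (-1.31) and SIRT2, a tubulin deacetylase gene, 1 and 5843 (-3.18). AGBL5, a deglutamylase gene, had the highest ratio of the 10 tested, with 84 and 6744 counts (2.53), and overlaps OST4 on the opposite strand, which had 80 and 35765 counts.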

How the data were processed

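The deposited values are raw gene counts in whole numbers, 1 table for each of the 2 libraries. Per the submitters' processing notes the tools were minimap2 2.11-r797, HISAT2 2.1.0 and featureCounts, with hg38; their options, the annotation, the use of strand, the counting of reads with several placements and any correction of Nanopore reads are not given in the sources used here. Totals were 403235 (Nanopore) and 191741714 (Illumina) counts.

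Counts were divided by library totals (CPM). Genes whose mean reached 5 CPM were tested by a two-sided exact conditional binomial test (double the smaller tail; Benjamini-Hochberg over 12414 genes; scipy 1.17.1), checked on simulated counts. A pseudocount of 1 CPM was used for log2 ratios. Names, positions and transcripts came from GENCODE release 44, which holds 58207 of 58735 identifiers. Alternate-contig copies were canonical transcripts aligned with minimap2 2.31 over at least 80% of their length at no more than 5% divergence. Named genes are all members, genes overlapping them, the 5 highest tested neighbours of TUBB by Illumina count, and from each list the 2 most abundant genes and those past 4-fold with an adjusted p under 0.05; KRT19, SYN1, TIMP1, SMPD4 and OST4 were named after their values were seen. The coding sequence of the alpha members is not reported here. The members and lists were chosen with earlier results of these data known. Alternatives were other pseudocounts, minimum levels, TMM (edgeR 4.0.16) and median-ratio scaling, Illumina TPM by 3 length definitions, and leaving out gene classes.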

Additional observations from a re-analysis of the deposited data

How the results depend on the processing

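Of 30 values of the members' log2 ratios under Illumina TPM, 21 had the same direction and side of the adjusted p threshold of 0.05. Of the others, 4 reversed, 4 no longer passed and 1 newly passed (TUBA4A, -0.54 with mean transcript length). The 20 values under TMM or median-ratio scaling changed neither, and other pseudocounts and other sets of tested genes cannot turn a direction. The 2-fold calls did change. TUBA1C was at -0.97 with TMM and -0.93 with median-ratio scaling, which left TUBA1A and TUBB at least 2-fold higher by Illumina. The same pair was left with canonical length. With union exonic length the pair was TUBB and TUBB4B, and TUBA1A was at -0.96. TUBB ranged from -4.99 to -3.72 over 10 settings. The reversals were under Illumina TPM: TUBA4A was 0.16 with union exonic length and 0.11 with canonical length, and TUBB3 was 0.60 and TUBB6 0.087 with union length. Under mean transcript length 1 member (TUBB2A) was at least 2-fold higher by Nanopore, against 25.1% of all tested genes. Under union length 5 members had an adjusted p under 0.05 in the exact binomial test (Benjamini-Hochberg), each higher by Illumina; over the tested genes as a whole the shares were 10.6% by Illumina and 31.2% by Nanopore. The share of TUBB in the Illumina beta counts was 62.9% over all annotated beta loci, and 52.1%, 46.4% and 53.4% per union, mean and canonical length. The changes under TPM follow from the length used as divisor. The median ratio of all tested genes was -0.33 with TMM, -0.29 with median-ratio scaling, 0.42 with union length and 0.07 with mean length. The 2-fold shares with union length were 33.2% by Nanopore and 12.8% by Illumina. Leaving out genes that overlap another left 0 members, so it gave no value. No paired analysis was possible because each platform has 1 library and the labels give no replicate numbers. Nanopore depth limits the rare members: 9 counts of TUBB2A and 16 of TUBA1A cannot show small differences.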
